A study of Arabidopsis thaliana with 3 samples.

Results

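The genes described here are 10 genes of inorganic phosphate transport and phosphate-starvation signalling in Arabidopsis thaliana, chosen by gene identifier from a table of 37336 genes. They are the uptake transporters PHT1;1, PHT1;2 and PHT1;4, the exporter PHO1, the transcription factor PHR1, the SPX-domain proteins SPX1, SPX2 and SPX3, the ubiquitin-conjugating enzyme PHO2 and the sulfolipid synthase SQD2. All 10 identifiers were found. The libraries came from polyadenylated RNA of whole seedlings in 3 samples, all wild type of the Col-0 accession, untreated and 7 days old. The seedlings were grown at 21 °C with 16 h of light and 8 h of dark on Murashige and Skoog agar with 1.5% sucrose. The 3 samples form 1 group, called replicates 1, 2 and 3, so no genotype, nutrient treatment or organ could be compared. The labels do not tell whether each replicate had its own plants, so every p-value below measures a spread between samples that could be technical.

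Plants take up inorganic phosphate through PHT1 proton symporters in the plasma membrane of root cells, and PHO1 exports it towards the xylem for the shoot. When phosphate is scarce, the MYB-type factor PHR1 activates target genes through a short promoter motif named P1BS. When phosphate is plentiful, SPX proteins bind inositol pyrophosphates and hold PHR1 back. PHO2 marks PHT1 transporters and PHO1 for breakdown, and the microRNA miR399 in turn represses PHO2 during starvation. SQD2 makes a sulfur-containing lipid that can stand in for phospholipids. Murashige and Skoog medium supplies phosphate, and the labels name no starvation step.

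A promoter motif and a microRNA are parts of this pathway, and both sequences are shown because PHR1 and miR399 act through them. PHR1 binds P1BS, searched here as GNATATNC, a palindrome that reads the same on both strands. In the 1000 bases upstream of the annotated start, 6 of the 10 genes held at least 1 match (60%), as did 20.3% of 27443 nuclear protein-coding genes. Of 46 other phosphate genes, from the wider list described below, 45.7% held a match. The 9 matches of the 10 genes are given 5′ to 3′ on the gene's strand from the RefSeq genome TAIR10.1, with the motif in capitals.
PHT1;1, 779 bases upstream, chr5:17402926-17402955 (minus): tatgttctcgcGAATATCCtatgtttttcg
PHT1;1, 761 bases upstream, chr5:17402908-17402937 (minus): ctatgtttttcGAATATGCttttttaaaat
PHT1;2, 562 bases upstream, chr5:17415118-17415147 (plus): tttatatgattGTATATACcatagattata
PHT1;2, 35 bases upstream, chr5:17415645-17415674 (plus): aatataaatatGGATATACccttaagattc
SPX1, 728 bases upstream, chr5:6801536-6801565 (plus): tttcctatcaaGAATATTCcatggaatcca
SPX3, 206 bases upstream, chr2:18606186-18606215 (plus): tattagagaccGAATATGCcagaggatttg
SPX3, 83 bases upstream, chr2:18606309-18606338 (plus): gctaaagctaaGCATATCCgctttcatatt
PHO2, 519 bases upstream, chr2:14283621-14283650 (minus): aacgaattaacGTATATCCttttttttttt
SQD2, 333 bases upstream, chr5:90439-90468 (minus): ttatgtgaagcGAATATTCattggaataga
The other 4 windows held no match. The nearest 250 bases held a match in 2 of the 10 genes and in 5.46% of all genes. A match describes letters in a window and does not show that PHR1 binds there.

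**Figure D1:**
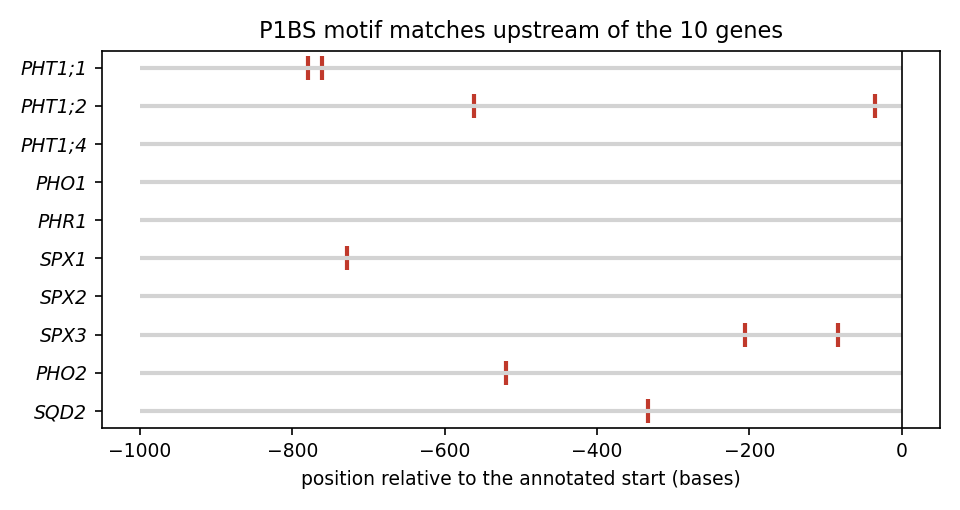
Positions of the P1BS motif (red ticks) in the 1000 bases upstream of each of the 10 genes, with the annotated start at 0 on the horizontal axis in bases. The first 2 rows and SPX3 hold 2 matches each, SPX1, PHO2 and SQD2 hold 1, and the other genes hold none.

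The second sequence is miR399, which pairs with the PHO2 transcript. The RefSeq annotation was searched by name, without names that have a hyphenated ending, which gave 5 mature miR399 sequences and no miR399c. All 5 have 21 bases and the same seed (bases 2 to 8, in capitals). They differ only after that seed.
miR399a, chr1:10227165-10227185 (plus): uGCCAAAGgagauuugcccug
miR399b, chr1:23345387-23345407 (minus): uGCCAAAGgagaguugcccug
miR399d, chr2:14442988-14443008 (minus): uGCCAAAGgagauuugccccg
miR399e, chr2:14443582-14443602 (plus): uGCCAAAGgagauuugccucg
miR399f, chr2:14445084-14445104 (plus): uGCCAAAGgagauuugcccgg
The exons of PHO2 held 5 stretches that pair with a miR399 at no more than 4 mismatches, and the other 9 genes held none. All 5 lie in an exon of the 5′ UTR on chromosome 2, each has 2 mismatches to its best partner, and capitals mark the bases that pair with it. Here and below only A with U and G with C counted as pairs, so U opposite G is a mismatch in lower case.
PHO2 with miR399a, chr2:14281770-14281790 (minus): uAGaGCAAAUCUCCUUUGGCA
PHO2 with miR399f, chr2:14281827-14281847 (minus): uCGaGCAAAUCUCCUUUGGCA
PHO2 with miR399a, chr2:14281884-14281904 (minus): uuGGGCAAAUCUCCUUUGGCA
PHO2 with miR399a, chr2:14281973-14281993 (minus): uAGGGCAuAUCUCCUUUGGCA
PHO2 with miR399a, chr2:14282106-14282126 (minus): uAGGGCAAAUCUuCUUUGGCA
The non-coding RNAs AT4 and IPS1 are known to bind miR399 without being cut, because extra bases interrupt the pairing. Each held 1 such stretch, with 3 inserted bases and 3 mismatches to miR399b.
AT4 with miR399b, chr5:895149-895172 (plus): uuGGGCAACUucgaUCCUUUGGCA
IPS1 with miR399b, chr3:3051224-3051247 (plus): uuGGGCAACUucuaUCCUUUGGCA
The miR399 loci were not analysed here.

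The 3 libraries held 27069921 to 32967215 counts, and levels are in CPM, the usual depth-scaled count, with library sizes adjusted by TMM. A count of 0 allows up to 3 counts, which is 0.0843 to 0.115 CPM, and this limit covers counting error only. Replicate 1 stood apart from the rest: Pearson's r across 17050 detected genes was 0.934 with replicate 2 and 0.92 with replicate 3, against 0.993 between replicates 2 and 3. Genes are not independent replicates in these correlations. The biological coefficient of variation was 0.32 over all libraries and 0.095 without replicate 1. The order of levels and the genes called as variable are therefore also given without it.

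Of the 10 genes, 8 reached 1 CPM in each library, as did 45.7% of all genes in the table. The exceptions were SPX3 and PHT1;2. By mean CPM per kb of merged exons, which allows levels of different genes to be compared, the order from the top was SQD2, PHO2, PHR1, PHO1, PHT1;1, SPX2, SPX1, PHT1;4, SPX3 and, last, PHT1;2. The top gene averaged 34.9 ± 8.67 CPM per kb and the last 0.157 ± 0.161 CPM per kb (SD, n = 3). Neighbours in the upper part of this order could not be told apart over all 3 libraries, since their ranges overlapped for each of the upper 7 steps. Over all 3, the ranges parted only above and below SPX3. In replicates 2 and 3 alone, SQD2 (39.0 and 40.7 CPM per kb) lay above PHO2 (30.7 and 32.1). PHO2 lay above PHR1 (25.5 and 21.3), and PHT1;1 (27.1 and 30.1) above SPX2 (9.37 and 8.00). Against the order given, PHT1;4 (9.11 and 12.5) lay above SPX1 (8.29 and 8.31). The steps from PHR1 to PHO1, PHO1 to PHT1;1 and SPX2 to SPX1 still overlapped. PHO2 stood at percentile 80.8 of detected genes by mean level per kb, PHO1 at 73.9 and SPX1 at 48.7.

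**Figure D2:**
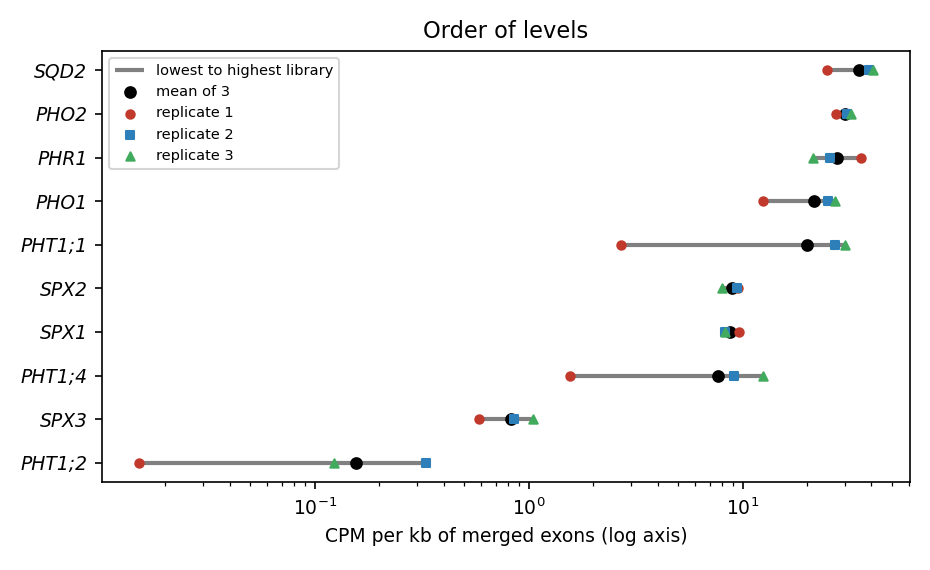
Level of each gene in CPM per kb of merged exons (horizontal log axis), ordered by the mean of the 3 libraries (black point), with coloured points for single libraries and a grey bar for their range. SQD2 leads at 34.9, the lowest mean is 0.157, and in the long bars of the fifth and eighth genes replicate 1 lies at 2.70 and 1.56.

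The uptake transporters were the genes that differed most between libraries. PHT1;1 (AT5G43350, TAIR10.1 chr5:17399769-17402158, 3 exons) is a main root uptake transporter. Replicates 1, 2 and 3 gave it 5.43, 54.4 and 60.5 CPM. Replicate 1 lay 11.2-fold below the highest library, while replicates 2 and 3 were close. PHT1;4 (AT2G38940, chr2:16257157-16260253, 2 exons), the other major root uptake transporter, had 3.12, 18.2 and 24.9 CPM, again lowest in replicate 1 and spread 7.98-fold. The goodness-of-fit test of edgeR asks whether a gene varies between libraries more than genes of like abundance, and p-values were adjusted by Benjamini-Hochberg over all 19016 genes tested. The spread it compares with was estimated with replicate 1 included, so a gene that is not called is not thereby shown to be stable. This edgeR test called both genes (adjusted p = 4.20e-06 for the first and 0.00673 for PHT1;4), which makes 2 of the 9 phosphate genes tested, against 2.02% of all genes. Genes called and lowest in replicate 1 were 1.07% of all tested. Without replicate 1 neither was called (adjusted p = 0.9998 and 0.861, edgeR), and 0.308% of all genes were. PHT1;4 also missed the threshold without replicate 2 (adjusted p = 0.0927, edgeR) and without replicate 3 (adjusted p = 0.179). That left 1 call among the phosphate genes in each case, against 0.62% and 0.67% of all genes.

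**Figure D3:**
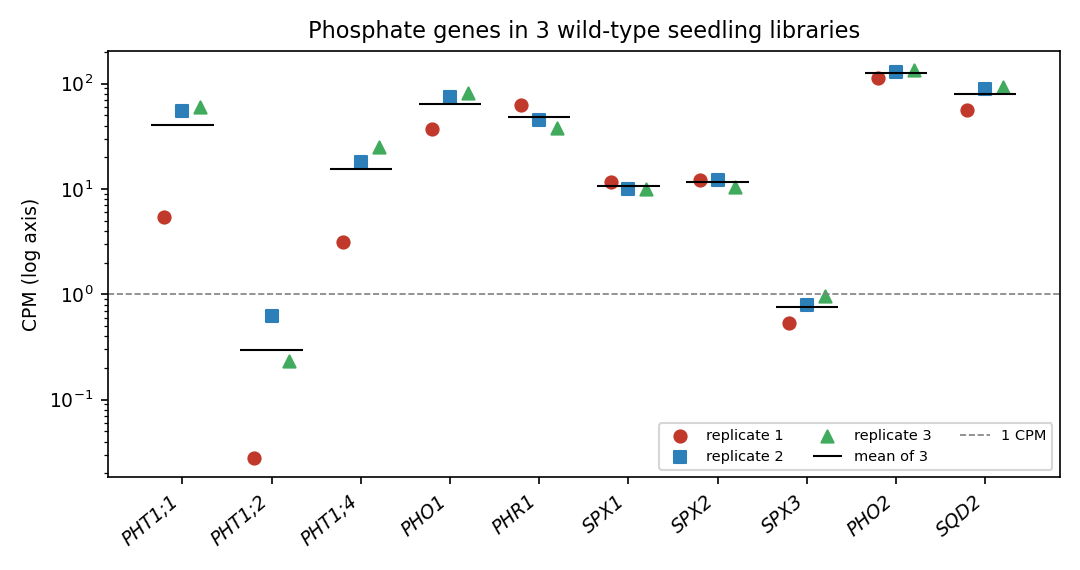
CPM of the 10 genes (vertical log axis) in each library, with a bar at the mean and a dashed line at 1 CPM. The 2 called transporters lie at 5.43 and 3.12 CPM in replicate 1, while SPX1, SPX2 and PHO2 keep their 3 points close together.

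Markers of root cells moved in the same direction as the uptake transporters. All 14 listed root markers had their lowest value in replicate 1. Only 3 of them were detected at 1 CPM in each library, so a share over detected genes is a background for those 3 alone. All 3 were lowest in replicate 1, as were 5 of the 8 detected phosphate genes and 43.3% of all detected genes. The marker lists were chosen with earlier results of these data known. The summed level of the 14 root markers was 760, 2039 and 2105 CPM in replicates 1, 2 and 3. Without the abundant glucosidase gene PYK10 it was 22.9, 88.3 and 91.8 CPM. The edgeR test called 2 of the 9 root markers tested, CASP1 and the root-hair expansin EXPA18, against 2.02% of all genes. The endodermal marker CASP1 had 1.88, 28.0 and 27.6 CPM and passed the edgeR goodness-of-fit test (adjusted p = 8.07e-06). EXPA18 had 0.422, 6.37 and 6.18 CPM (adjusted p = 0.00996, edgeR), and without replicate 1 neither marker passed (adjusted p = 0.9998 for both). The root-hair markers COBL9, EXPA7, LRX1 and PRP3 had 3, 6, 7 and 5 counts in replicate 1. They had 87, 245, 162 and 276 counts in replicate 2 and 68, 171, 127 and 230 in replicate 3. The filter on low counts left them untested, as it did RSL4 (3, 5 and 11 counts), so the 2 calls do not cover them. None of the 14 was at 0 in any library. The root regulator SHR varied less, at 17.4, 21.9 and 27.4 CPM. It held most of the root sum without PYK10 in replicate 1 (17.4 of 22.9 CPM), but not in replicates 2 and 3. Summed levels of 8 shoot markers were 51029, 47534 and 47242 CPM in the same order, with 0 of them called. That sum is carried by CAB1. Without it, a sum added after seeing the data, the values were 19267, 20578 and 19776 CPM, and 5 of the 8 shoot markers were lowest in replicate 1. The part of root material in the results on the uptake transporters was not tested. In whole seedlings, fewer cells of a type and less RNA per cell cannot be told apart.

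PHT1;1 dominated the PHT1 family, whose 9 genes together held 333, 2273 and 2247 counts in replicates 1, 2 and 3. Its share was 58.0% in replicate 1 (exact binomial 95% interval 52.5 to 63.3%), 73.3% in replicate 2 (71.4 to 75.1%) and 70.2% in replicate 3 (68.2 to 72.1%). PHT1;4 took 33.3%, 24.5% and 28.9%. These intervals cover counting error only, so they do not test a difference between libraries. PHT1;5, a transporter that moves phosphate between source and sink organs, had 28, 22 and 10 counts, or 8.41%, 0.968% and 0.445% of the family. It did not pass the goodness-of-fit test (unadjusted p = 0.523, edgeR), and it was not lowest in replicate 1. Of the other family members, 3 had 0 counts in each library, and PHT1;8 and PHT1;9 had no more than 5. Per kb, the leading gene exceeded PHT1;4 2.28-fold (log2 ratio 1.19 ± 0.41, SD, n = 3), with the same sign in 3 of 3 libraries.

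**Figure D4:**
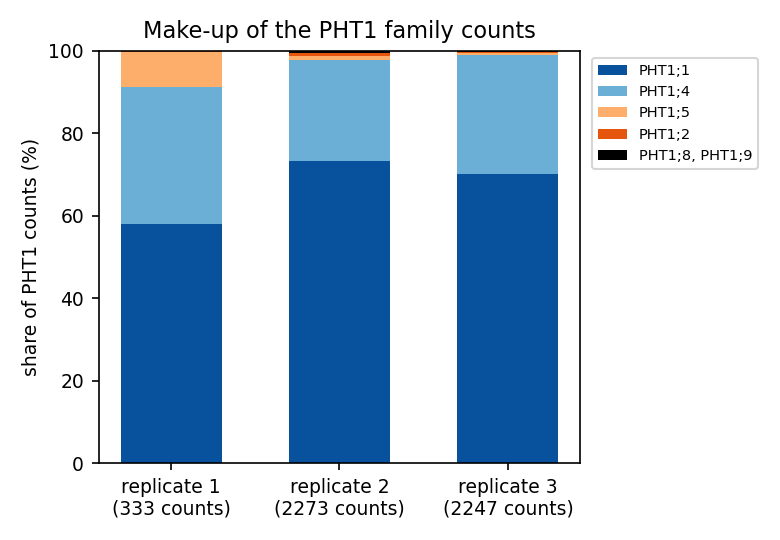
Share of the PHT1 family's counts taken by each gene (vertical axis, percent) in each library, with the family's total count under each bar. The dark blue gene at the base holds 58.0%, 73.3% and 70.2%, and the pale orange one (PHT1;5) holds 8.41%, 0.968% and 0.445%.

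PHT1;2 (AT5G43370, chr5:17415698-17417972, 3 exons) lies 13.5 kb from PHT1;1 and is its near copy. It had 1, 19 and 6 counts in replicates 1, 2 and 3. Summed over the libraries, the leading gene had 3435 counts and its copy had 26, a ratio of 132 (exact 95% interval 90.0 to 203, counting error only). In replicates 1, 2 and 3 the ratio was 193, 87.6 and 263, and 19 of the 26 counts came from replicate 2. Without that library the summed ratio was 253 (122 to 630), a step added after seeing the data. Per kb the log2 ratio was 5.89 ± 1.24 (SD, n = 3). The split of reads within this pair is uncertain, because the coding sequences are identical at 97.7% of 1575 aligned bases with no gap. Of 50-base stretches in their exons, 57.5% and 54.4% occur once in the nuclear genome. At 100 bases the shares are 68.4% and 65.6%. No source used here gives the read length or the treatment of reads that match several places. The level of PHT1;1, its share of the family and its ratio to PHT1;4 are therefore uncertain too. The first 60 coding bases show how alike these neighbours are, with capitals where a base differs from PHT1;1.
PHT1;1, chr5:17401584-17401643 (minus): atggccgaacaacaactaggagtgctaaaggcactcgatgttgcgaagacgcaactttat
PHT1;2, chr5:17416074-17416133 (plus): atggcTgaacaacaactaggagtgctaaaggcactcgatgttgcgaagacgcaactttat
PHT1;3, chr5:17409524-17409583 (plus): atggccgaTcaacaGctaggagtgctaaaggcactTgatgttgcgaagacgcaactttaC
Within this stretch the second gene differs at 1 base and the third at 4. The third, which lies between the others and had 0 counts, is more distinct, with 89.5% coding identity to the first and 98.6% of its 50-base exon stretches found once. PHT1;4 shares 69.2% of aligned coding bases with the first, and each of its exon stretches of this length occurs once.

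PHO1 (AT3G23430, chr3:8387398-8393467), the exporter, followed the uptake genes in direction but with a smaller spread. Its level was 37.4, 74.8 and 81.1 CPM in replicates 1, 2 and 3, lowest in replicate 1. It did not pass the goodness-of-fit test (adjusted p = 0.791, edgeR). Its relative PHO1;H1, which also exports phosphate, had 7.51, 7.68 and 9.40 CPM, with replicates 1 and 2 close. Per kb PHO1 stood 7.70-fold above it (log2 ratio 2.95 ± 0.51, SD, n = 3), in 3 of 3 libraries. PHF1, which helps PHT1 proteins leave the endoplasmic reticulum, was the highest other gene of this group at 6.99 ± 2.28 CPM per kb (SD, n = 3), and PHO1;H10 the lowest at 1.75 ± 0.50 CPM per kb.

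PHR1 (AT4G28610, chr4:14132811-14135292) had 63.1, 45.1 and 37.7 CPM in replicates 1, 2 and 3. It was highest in replicate 1, but the spread was within that of genes of like abundance (unadjusted p = 0.346, edgeR goodness-of-fit test). Replicate 1 widened that yardstick, so the test does not show that PHR1 was stable. Another annotated gene covers 3.33% of its exons, so a small part of its count is uncertain. Its partner PHL1, which acts redundantly with it, had 10.5, 8.43 and 7.98 CPM. PHR1 exceeded PHL1 7.52-fold per kb (log2 ratio 2.91 ± 0.18, SD, n = 3), and in CPM not corrected for length the log2 ratio was 2.40. PHL2, a further relative, led the other listed factors at 22.2 CPM per kb, and MYB62 was lowest at 0.193 CPM per kb with 15, 7 and 3 counts.

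SPX1 and SPX2, which restrain PHR1, spread little over the libraries. SPX1 (AT5G20150, chr5:6802282-6803655) had 11.6, 10.003 and 10.02 CPM in replicates 1, 2 and 3. SPX2 (AT2G26660, chr2:11338752-11340950) had 12.2, 12.1 and 10.3 CPM. Neither differed between libraries beyond genes of like abundance (unadjusted p = 0.937 and 0.926, edgeR goodness-of-fit test). Per kb the pair could not be ordered, with a log2 ratio of −0.03 ± 0.12 (SD, n = 3) that changed sign between libraries. SPX3 (AT2G45130, chr2:18606410-18607853) had 19, 24 and 25 counts, or 0.534, 0.785 and 0.960 CPM. SPX1 exceeded SPX3 9.72-fold per kb (log2 ratio 3.28 ± 0.50, SD, n = 3), in 3 of 3 libraries. SPX3 was also the gene with P1BS matches at 206 and 83 bases from its start, whereas SPX2 held none in its window. SPX4, the fourth SPX gene, named after its values were seen, had 12.3, 11.8 and 12.6 CPM. Among the enzymes that make the inositol pyrophosphate signal, ITPK1 was highest at 18.0 CPM per kb and VIH1 lowest at 1.36 CPM per kb.

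PHO2 (AT2G33770, chr2:14277558-14283113), the gene with the miR399 sites shown above, had the highest CPM of the 10 genes before length correction. Its 3 libraries gave 113, 128 and 134 CPM, a spread of 1.18-fold (unadjusted p = 0.874, edgeR goodness-of-fit test). NLA, a ubiquitin ligase that acts with PHO2 on PHT1 proteins, had 9.95, 9.12 and 7.64 CPM. Per kb PHO2 exceeded NLA 5.16-fold (log2 ratio 2.37 ± 0.31, SD, n = 3), in 3 of 3 libraries. Of the miR399-binding RNAs, AT4 had 11.4, 37.5 and 44.6 CPM, while IPS1 had 19, 66 and 41 counts, or 0.534, 2.16 and 1.57 CPM. Both were lowest in replicate 1, and neither passed the goodness-of-fit test (adjusted p = 0.0779 for AT4 and 0.913 for IPS1, edgeR).

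SQD2 (AT5G01220, chr5:86543-90117) measured 56.6, 88.7 and 92.6 CPM over the 3 libraries. Replicate 1 was again lowest, and the gene did not pass the goodness-of-fit test (unadjusted p = 0.303, edgeR). SQD1, which makes the sulfur-containing precursor that SQD2 uses, spread little, at 75.9, 78.4 and 75.0 CPM. The log2 ratio of SQD2 to SQD1 per kb was −0.23 ± 0.39 (SD, n = 3), and it changed sign between libraries. NPC5, a phospholipase of the same response, had 0 counts in each library. The lipid genes MGD3, NPC4 and MGD2 were named after their values were seen. They had 22, 28 and 46 counts, 21, 38 and 45 counts, and 278, 292 and 305 counts, in that order.

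The 10 genes were read against a list of 56 phosphate genes that includes them. Of the 56, 40 reached 1 CPM in each library, 4 had 0 counts in all, and 47 were tested. The same edgeR test called 2 of the 47, against 2.02% of all genes tested. Both were uptake transporters and both were among the 10. Of the 47, 6 had an unadjusted p under 0.05 (edgeR), against 7.45% of all genes tested. Without replicate 1 this held for 3 of 48. Of the 46 genes outside the 10, 38 were tested, with 0 calls. At the share of 2.02% over all genes, 0 calls among so few says little about them. Of the 38, 4 had an unadjusted p under 0.05 (edgeR), and DESeq2's dispersion outliers held 0 of them, against 0.121% of all genes. Among the 8 detected genes of the 10, the 2 called transporters were at least 2-fold lower in replicate 1 than in replicate 2, against 5.24% of detected genes. PHO1 joined them against replicate 3, where the share of detected genes was 6.12%. None of the 8 was 2-fold higher in replicate 1, against 5.96% of detected genes for replicate 2 and 7.82% for replicate 3. Between replicates 2 and 3, 0 of the 8 differed by 2-fold, while 0.17% of detected genes were that much lower in replicate 2 and 0.0235% higher. The median log2 difference of the 8 was −0.41 between replicates 1 and 2 and −0.47 between replicates 1 and 3, against 0.02 for all detected genes in both. Between replicates 2 and 3 it was −0.065, against 0.006 for all detected genes. Within the wider list, the detected genes outside the 10 that were at least 2-fold lower in replicate 1 than in both others were AT4, GDPD1, PAP17 and ALMT1, named after their values were seen. IPS1, not detected at 1 CPM in each library, was lower by as much. GDPD1, a phosphodiesterase of lipid breakdown, had 15.1, 34.2 and 47.6 CPM, though another gene covers 44.7% of its exons. PAP17, a purple acid phosphatase, had 17.3, 47.1 and 47.9 CPM, and ALMT1, a root malate channel, at 4.47, 17.3 and 15.3 CPM. None of these 4 passed the adjusted test.

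**Figure D5:**
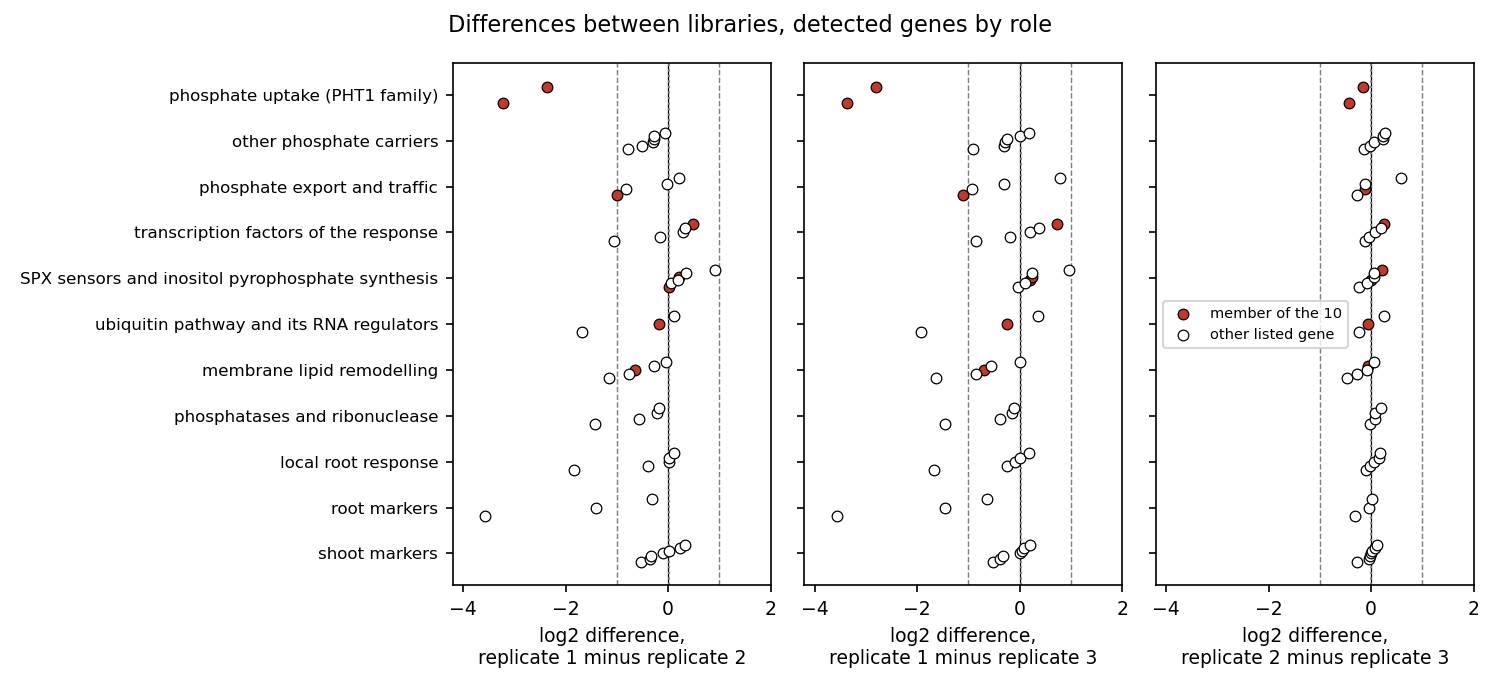
Log2 difference in CPM (0.5 added) between each pair of libraries, 1 point per gene at 1 CPM or more, in rows by role with marker lists at the bottom. Red points are the 10 genes, dashed lines mark 2-fold and the dotted line the median of all detected genes. The 2 uptake transporters lie between −2.37 and −3.36 in the panels with replicate 1, and no listed gene passes 2-fold between replicates 2 and 3.

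Among the remaining role groups, PHT3;1, the mitochondrial carrier, averaged 188 ± 57.6 CPM per kb (SD, n = 3), against 34.9 ± 8.67 CPM per kb for SQD2. VPT3, a vacuolar carrier, was lowest of the carrier group with 9, 21 and 13 counts. Among phosphatases, PAP26, the main vacuolar acid phosphatase, was at 89.6 CPM per kb and the ribonuclease RNS1 at 0.742 CPM per kb. In the group of the local root response, STOP1 led at 36.4 CPM per kb and LPR1, a cell-wall ferroxidase, was lowest at 1.13 CPM per kb. The genes whose pattern over the 3 libraries was most like that of the leading uptake transporter, by the distance between mean-centred log2 values, were DGR1, CYP86A1 and GLP10, at distances of 0.0454, 0.0477 and 0.0836 among 17049 detected genes. DGR1 was at 3.09, 33.4 and 35.5 CPM, CYP86A1 at 3.21, 33.998 and 36.2 CPM and GLP10 at 1.603, 17.5 and 20.3 CPM. All 3 were lowest in replicate 1, as was the transporter, which follows from choosing them by this pattern.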

How the data were processed

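The authors deposited read counts per gene as whole numbers, in 1 table whose 3 value columns are the 3 libraries. HISAT2 2.1.0 and featureCounts 1.6.1 are named per the submitters' processing notes, as are DESeq2 and TAIR10, without saying what each did. No source used here states the annotation, strand setting or filters. All 56 listed genes matched the RefSeq annotation of TAIR10.1, which gave positions, merged exon lengths and sequences. CPM used TMM library sizes (edgeR 4.0.16, R 4.3.3). Levels between genes are CPM per kb with a pseudocount of 0.1 in ratios, and differences between libraries are log2(CPM + 0.5). Variation was tested with edgeR's goodness-of-fit test on trended dispersion after filterByExpr, in an intercept-only model, with a threshold of 0.05. The procedure was tested on simulated data in which all libraries shared the same spread. In the real data replicate 1 stood apart, so the simulation does not show how the test behaves here. DESeq2 1.42.0 gave alternatives. With 3 libraries, an exact sign-flip permutation test of a ratio cannot go below p = 0.25, so ratios are descriptions. Sequences and tables were handled with Biopython 1.88, SciPy 1.17.1 and pandas 2.3.3 under Python 3.11.15. The members and lists were chosen with earlier results of these data known. Text names all 10 genes, phosphate genes called, the highest and lowest other gene per kb of each role group, pair partners and the 3 genes nearest in pattern to the member with the largest SD; further names are marked or serve as background.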

Additional observations from a re-analysis of the deposited data

How the results depend on the processing

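The count of 2 phosphate genes past the goodness-of-fit test, among the 10 and among the 56, was the same with DESeq2 size factors, total counts, no filter and a common dispersion, and the genes were PHT1;1 and PHT1;4 each time. Their adjusted p (edgeR) reached at most 0.000665 for PHT1;1 and 0.0323 for PHT1;4 under these settings. Leaving out a library gave 0 to 1 genes, 0 without replicate 1 (1 of 9 members at an unadjusted p under 0.05) and PHT1;1 alone without replicate 2 or 3, and DESeq2's dispersion outliers held 0 of the 9 and 23 of all 19016 genes. The number detected stayed within 1.5 times of 8 under every alternative run. Of the ratios, a pseudocount of 1 gave log2 values of 3.68 for PHT1;1 to PHT1;2, 2.42 for SPX1 to SPX3 and 2.63 for PHR1 to PHL1, and no length correction gave 2.40 for PHR1 to PHL1 and 3.804 for PHO2 to NLA; the other 35 alternatives moved by less than 1 SD. Scaling by total counts shifted the median gene by 0.11 on the log2 scale in replicate 1, −0.05 in replicate 2 and −0.06 in replicate 3. The difference of PHO2 was then −0.01 between replicates 1 and 2, and that of PHO1 −0.94 between replicates 1 and 3, short of 2-fold. No paired analysis was possible because the series has 1 group. Few counts limit PHT1;2, SPX3 and the PHT1 family in replicate 1.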
